A study of Mus musculus with 12 samples.

Results

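The 10 genes described here encode the proteins that license DNA replication origins and form the replicative helicase: Mcm2, Mcm3, Mcm4, Mcm5, Mcm6, Mcm7, Mcm10, Cdc45, Cdc6 and Cdt1. They were chosen by symbol from the 24502 genes of the deposited table. All 10 were listed, and all 10 were among the 14827 genes that had enough reads to be tested. RNA was measured in mouse regulatory T (Treg) cells, the CD4+ T cells that carry the transcription factor Foxp3 and restrain immune responses. The mice were either wild type or Foxp3CreGpx4fl/fl, in which Cre is expressed from Foxp3 and deletes Gpx4, an enzyme that detoxifies lipid peroxides. All mice were 11 weeks old, and the labels name no Cre allele in the controls. Cells were sequenced either unstimulated or after 4 h of stimulation with anti-CD3 and anti-CD28, each coated on plates at 5 µg/ml. The 4 groups of genotype and stimulation held 3 libraries each, 12 in all. The labels do not say whether the 3 libraries of a group came from separate animals, so the p-values measure the spread between these libraries only. The titles reuse the same replicate numbers in unstimulated and stimulated groups, and whether equal numbers mark the same animal is not stated. How long the unstimulated cells were kept is not stated either, and stimulation therefore cannot be told apart from culture.

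In G1 phase the origin recognition complex, Cdc6 and Cdt1 load the ring of Mcm2 to Mcm7 onto origins as an inactive double hexamer, the step called licensing. At the start of S phase, kinases promote the joining of Cdc45 and the GINS complex to the ring, which turns it into the active helicase, and Mcm10 is needed for it to unwind DNA. The genes are classic targets of the E2F transcription factors, and their mRNAs are abundant in cycling T cells and low in resting ones.

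Sequence around the start sites was examined because E2F sites are the best known feature that these genes share. RefSeq (GRCm38.p6) windows of 300 bases, with 250 bases before and 50 after the annotated start, were matched by symbol to 9 of the 10 genes, and to Mcm4 in no case. The E2F motif was searched on both strands as TTTCCCGC, TTTCGCGC, TTTGCCGC and TTTGGCGC. It was found for 6 of the 9 genes (66.7%): Mcm3, Mcm5, Mcm6, Mcm7, Cdc6 and Cdt1. The same letters were found in 2.26% of all 32851 windows, for 2.60% of all genes with a window, and for 4.72% of the tested genes. No match was found in the windows of Mcm2, Mcm10 and Cdc45. The stretches that hold the matches are printed below, 5′ to 3′ on the strand of the gene, with the matched letters in capitals. Before and after refer to the RefSeq start, and for Mcm7 and Cdc6 the GENCODE gene begins further upstream, so that their stretches lie within it. Those of Mcm5 and Mcm6 are longer because they are printed up to the start. They also hold CCAAT boxes, as windows of other genes do.
Mcm3, chr1:20820266-20820295, minus strand, after the start: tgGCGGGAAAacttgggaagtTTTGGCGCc
Mcm5, chr8:75109336-75109508, plus strand, before the start: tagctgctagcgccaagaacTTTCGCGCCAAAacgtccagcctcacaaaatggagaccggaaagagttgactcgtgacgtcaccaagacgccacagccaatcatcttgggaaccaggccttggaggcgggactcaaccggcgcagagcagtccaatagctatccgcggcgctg
Mcm6, chr1:128359706-128359835, minus strand, before the start: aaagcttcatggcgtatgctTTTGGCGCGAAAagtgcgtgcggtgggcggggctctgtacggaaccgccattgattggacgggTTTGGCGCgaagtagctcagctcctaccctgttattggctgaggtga
Mcm7, chr5:138172030-138172059, minus strand, before the start: aatttcgaaccGCGGGAAAcagggtgtcca
Mcm7, chr5:138171849-138171878, minus strand, after the start: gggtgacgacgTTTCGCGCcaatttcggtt
Cdc6, chr11:98908002-98908031, plus strand, before the start: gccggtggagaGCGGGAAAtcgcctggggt
Cdt1, chr8:122568035-122568064, plus strand, after the start: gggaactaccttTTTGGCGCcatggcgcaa

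In Mcm5 and in the first block of Mcm6, 2 matches on opposite strands overlap, so that the block of capitals is longer than 1 motif. The letters CCAAT, searched on both strands, were found for 7 of the 9 genes (77.8%), against 41.1% of all genes, and Cdc6 and Cdt1 were the exceptions. The letters TTTGAA, the core of the cell cycle homology region that is common in promoters of mitotic genes, were found for Mcm2 and Cdc45 only (22.2% of the 9, against 20.2% of all genes). Other replication and cell cycle genes also held the E2F letters, in 28.9% of the genes of the 7 lists described further on and in 42.1% of the list of E2F and G1/S genes. The list of mitotic markers held them in 9.09% of its genes, CCAAT in 90.9% and TTTGAA in 72.7%. Among tested genes outside the 10, the 472 with an E2F match had a median log2 fold change of -0.08 between unstimulated Gpx4-deficient and wild-type cells and of -0.06 between the stimulated ones. The 9649 without a match had medians of -0.02 and -0.01, so both sets lay close to 0. A match is a stretch of letters and was not tested for binding.

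**Figure D1:**
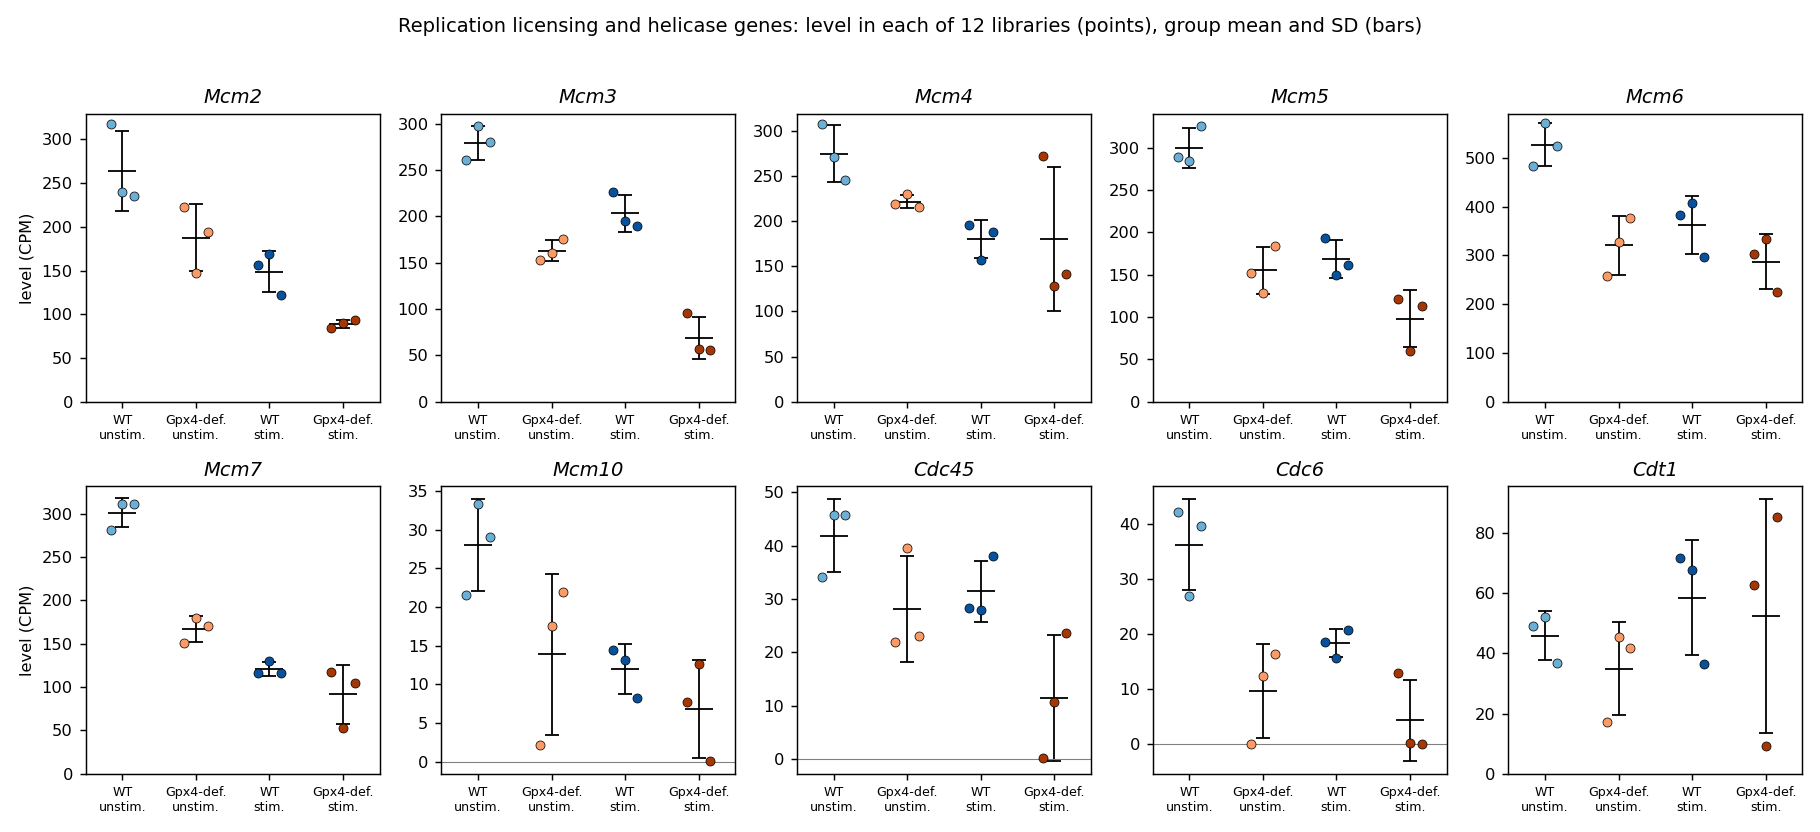
Level of each of the 10 genes in CPM (counts scaled to library size, linear axis) in the 4 groups; points are libraries, horizontal bars are means and whiskers are SD over 3 libraries. The unstimulated wild-type libraries hold the highest mean for every gene but Cdt1, and Mcm10, Cdc45 and Cdc6 each have at least 1 Gpx4-deficient library near 0.

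Levels are given as CPM, in which counts are scaled to the size of each library. Library totals ran from 24629230 to 31879267 counts. In bulk RNA, fewer cells that express a gene and less of its RNA per cell cannot be told apart. Gpx4, the deleted gene, was at 153.7 ± 16.1 CPM in unstimulated wild-type cells and 8.20 ± 3.77 CPM in the Gpx4-deficient ones (SD, n = 3), and at 86.5 ± 19.4 and 7.02 ± 3.21 CPM after stimulation. Foxp3 was present in all 12 libraries, with group means from 23.8 to 63.9 CPM, and the summed level of 8 Treg and T cell genes ran from 3527 to 3834 CPM without stimulation and from 6587 to 7825 CPM with it. The stimulated Gpx4-deficient libraries stood apart from the other 9. Mitochondrially encoded transcripts took 2.84% to 3.72% of their counts, against 1.18% to 1.37% in stimulated wild-type libraries. The unstimulated genotypes did not overlap either, at 1.72% to 1.94% in Gpx4-deficient and 1.21% to 1.38% in wild-type libraries. For the stimulated Gpx4-deficient libraries the common dispersion was 1.43 against 0.34 to 0.67 in the other groups. Neutrophil marker genes summed to between 47.2 and 171.9 CPM in unstimulated wild-type libraries and to between 1.34 and 11.5 CPM in the unstimulated Gpx4-deficient ones, with Ly6g, a defining marker, listed at 0 in both groups. Summed monocyte and macrophage markers were at 186.7 to 292.3 and 171.3 to 208.4 CPM in those groups, and at 42.8 to 84.0 and 116.1 to 161.6 CPM in the stimulated wild-type and Gpx4-deficient ones. Between the stimulated genotypes, summed plasma cell markers were at 422.1 to 474.0 CPM in wild-type and 574.6 to 636.1 CPM in Gpx4-deficient libraries. Of that list Jchain passed as higher there, and Xbp1 as higher on stimulation in both genotypes. Erythroid and platelet markers were at 8.53 to 28.3 against 40.2 to 54.2 CPM, and CD8 and NK markers at 11.5 to 22.2 against 23.3 to 32.8 CPM. Neutrophil, B cell, dendritic cell, and stromal and epithelial sums overlapped between the stimulated genotypes. B cell markers were at 61.5 to 89.5 CPM in unstimulated and 15.9 to 31.2 CPM in stimulated wild-type libraries. The part of these differences in the results below was not tested.

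The 6 genes of the helicase ring had their highest summed level in unstimulated wild-type cells and their lowest in stimulated Gpx4-deficient cells. The sum of Mcm2 to Mcm7 was 1940, 1974 and 1924 CPM in the unstimulated wild-type libraries (1946 ± 25.8, SD, n = 3). In unstimulated Gpx4-deficient cells it was 1155, 1175 and 1317 CPM (1215 ± 88.5), and in stimulated wild-type cells 1271, 1208 and 1073 CPM (1184 ± 101). These 2 groups overlapped and lay between the others. The stimulated Gpx4-deficient libraries, at 991.8, 721.0 and 731.8 CPM (814.9 ± 153), were all below every other library. The other 4 genes summed to 152.0 ± 5.53, 120.3 ± 15.1, 86.5 ± 39.7 and 75.0 ± 38.8 CPM in unstimulated wild-type, stimulated wild-type, unstimulated Gpx4-deficient and stimulated Gpx4-deficient cells, and the last 3 of these groups overlapped.

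The first comparison asks how these genes differ between Gpx4-deficient and wild-type Treg cells before stimulation. All 10 genes had a lower mean in the Gpx4-deficient cells, with a median log2 fold change of -0.75, against 0.01 over all tested genes, of which 49.3% were negative. None passed an adjusted p of 0.05 in edgeR's quasi-likelihood test, in which 10 of all tested genes passed (0.0674%, with 0.0135% as lower and 0.054% as higher). At an unadjusted p under 0.05 stood 5 of the 10 genes and 860 of all tested genes. Limma-voom called none of the 10, where it called 0.121% of all tested genes. DESeq2 called 4, which were Mcm3, Mcm5, Mcm6 and Mcm7, where it called 1.23% of all tested genes and 0.553% as lower. For 7 of the 10 genes every Gpx4-deficient library was below every wild-type library, which held for 9.89% of all tested genes. No gene of the 10 had the reverse, which held for 8.42%.

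Among the loaders, Cdc6, the ATPase that recruits the ring to the origin recognition complex, was at 42.3, 26.9 and 39.6 CPM in unstimulated wild-type libraries and at 0.105, 12.5 and 16.4 CPM in the Gpx4-deficient ones. The groups did not overlap, but the first Gpx4-deficient library held 3 Cdc6 counts in all, and the log2 fold change of -1.91 had an SE of 1.56 (adjusted p = 1). Cdt1, which delivers Mcm2 to Mcm7 to the origin and is blocked by geminin after licensing, was at 49.0, 51.9 and 36.7 CPM in wild-type and 17.1, 45.6 and 41.9 CPM in Gpx4-deficient libraries. Those groups overlapped.

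All 6 ring genes separated the unstimulated groups. Mcm3, which closes the ring next to Mcm5 and Mcm7, was at 260.7, 297.1 and 280.3 CPM in wild-type libraries and at 152.8, 160.7 and 175.8 CPM in Gpx4-deficient ones, which differed by -0.78 on the log2 scale (SE 0.20, adjusted p = 0.332). Mcm5, which forms with Mcm2 the gate through which DNA enters the ring, was at 288.7, 283.8 and 326.2 CPM against 152.2, 128.6 and 184.5 CPM, with -0.95 (SE 0.24, adjusted p = 0.332). The highest Gpx4-deficient library of Mcm5 thus lay well below the lowest wild-type library. Mcm6, part of the catalytic Mcm4, Mcm6 and Mcm7 core, was at 483.8, 571.7 and 524.6 CPM against 256.9, 328.1 and 376.8 CPM (log2 fold change -0.72, SE 0.18, adjusted p = 0.332). Mcm7, also of that core, was at 281.6, 310.7 and 311.3 CPM against 150.7, 179.8 and 170.4 CPM (log2 fold change -0.85, SE 0.24, adjusted p = 0.427). Mcm2 and Mcm4 differed least, with log2 fold changes of -0.49 and -0.31. Mcm2, a histone-binding subunit, was at 317.1, 240.2 and 235.4 CPM in wild-type and at 222.7, 146.9 and 193.8 CPM in Gpx4-deficient libraries, and Mcm4 at 308.2, 270.9 and 246.0 CPM and at 219.7, 230.4 and 215.6 CPM.

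The helicase activators were more variable. Cdc45, the factor that joins the ring to make the active helicase, was at 34.1, 45.8 and 45.7 CPM in unstimulated wild-type libraries and at 21.9, 39.6 and 23.0 CPM in Gpx4-deficient ones, with overlap. Mcm10 was at 21.6, 33.3 and 29.1 CPM against 2.11, 17.5 and 21.9 CPM, also with overlap. The SE of both log2 fold changes was larger than the change itself, at -0.57 (SE 0.98) for Cdc45 and -1.02 (SE 1.11) for Mcm10.

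**Figure D2:**
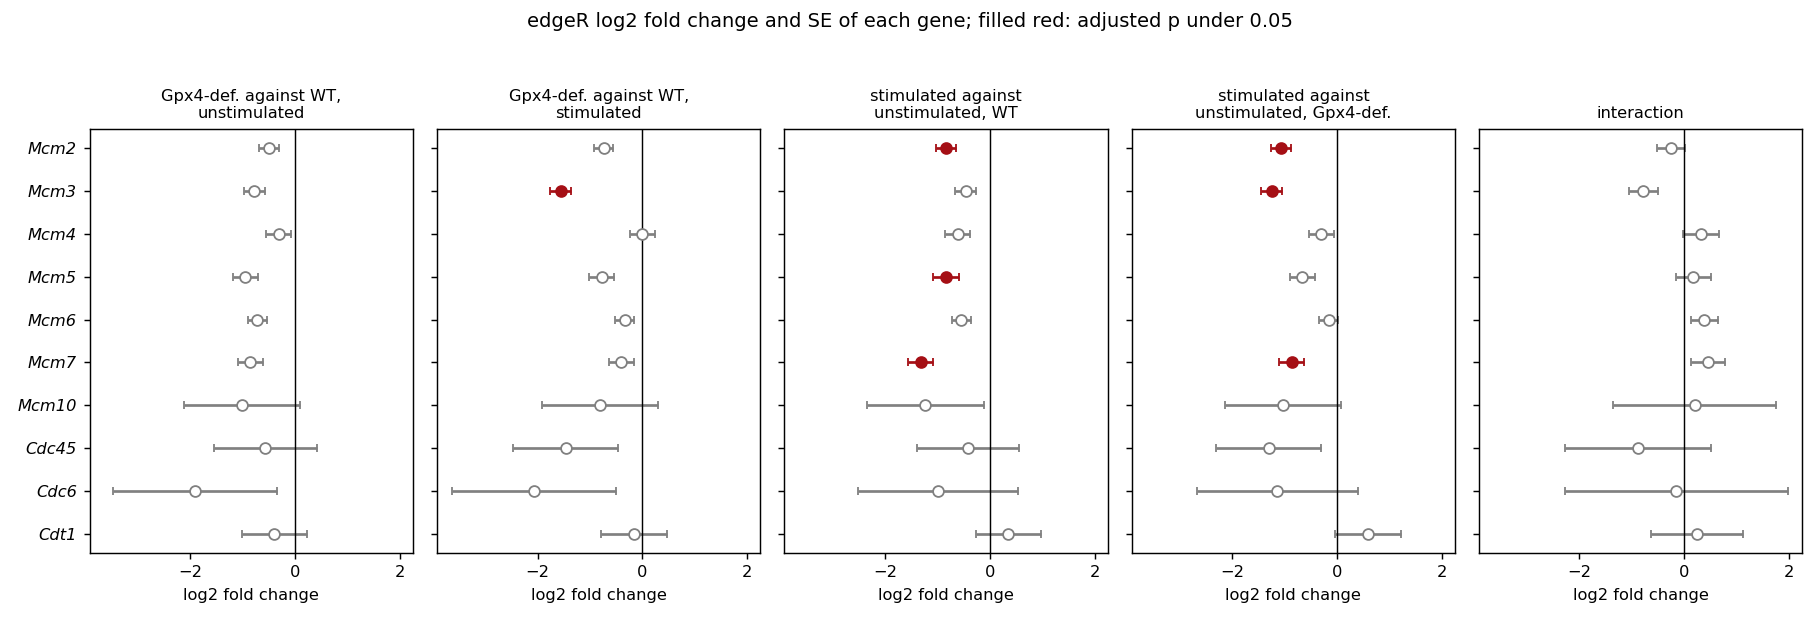
Log2 fold change from edgeR with its SE (whiskers) for the 10 genes in the 4 comparisons and the interaction; filled red points have an adjusted p under 0.05. Between genotypes Mcm3 after stimulation is the only filled point, at -1.56, and the whiskers of Mcm10, Cdc45, Cdc6 and Cdt1 are the widest in every panel.

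The second comparison sets Gpx4-deficient against wild-type cells after 4 h of stimulation. Mcm3 fell and the other 9 genes did not pass the test. Of all tested genes 2.27% passed, 1.25% as lower and 1.03% as higher, so that 1 of 10 is a small count. Mcm3 was at 226.5, 194.8 and 189.1 CPM in stimulated wild-type libraries and at 95.2, 56.4 and 55.4 CPM in Gpx4-deficient ones, so the groups lay far apart. The log2 fold change was -1.56 (SE 0.20, adjusted p = 0.00239), and the Gpx4-deficient mean of 69.0 ± 22.7 CPM was 33.9% of the wild-type mean of 203.5 ± 20.1 CPM (SD, n = 3). The call held without any 1 of the 12 libraries, with adjusted p from 0.000150 to 0.0156. It was lost when the fit held only the 6 stimulated libraries (log2 fold change -1.55, adjusted p = 0.110).

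For the other ring genes the stimulated genotypes differed less. Mcm2 was at 155.9, 168.4 and 122.4 CPM in wild-type and at 84.1, 90.2 and 93.0 CPM in Gpx4-deficient libraries, which did not overlap (log2 fold change -0.74, SE 0.19, adjusted p = 0.0695). Mcm5 was at 193.2, 149.9 and 161.1 CPM against 121.1, 59.8 and 113.2 CPM, also without overlap (-0.78, SE 0.24, adjusted p = 0.124). DESeq2 called both, with adjusted p of 0.00865 for Mcm2 and 0.0286 for Mcm5, where it called 10.5% of all tested genes. Mcm6 and Mcm7 overlapped between the genotypes. Mcm6 was at 382.4, 408.0 and 296.3 CPM against 301.9, 334.0 and 224.0 CPM (-0.34, SE 0.18, adjusted p = 0.352), and Mcm7 at 116.3, 130.3 and 116.3 CPM against 117.3, 52.8 and 104.7 CPM (-0.40, SE 0.23, adjusted p = 0.393). Mcm4 had group means of 180.3 and 180.5 CPM, at 196.3, 156.7 and 187.9 CPM against 272.2, 127.7 and 141.5 CPM, with its highest value in 1 Gpx4-deficient library. Its log2 fold change of 0.00136 (SE 0.24) turned negative under upper quartile and total count scaling (-0.00379 and -0.00198), limma-voom, a replicate block, and without stimulated wild-type replicate 2 or stimulated Gpx4-deficient replicate 1 (-0.37).

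The loaders and activators varied widely among the stimulated Gpx4-deficient libraries, as did other genes of like level there. The coefficient of variation (SD over mean) was 92.6% for Mcm10, 103% for Cdc45, 168% for Cdc6 and 74.3% for Cdt1. Genes of like level in that group had medians of 94.6%, 80.1%, 108% and 36.6%. Cdc6 was at 18.6, 15.7 and 20.8 CPM in wild-type and at 12.9, 0.154 and 0.113 CPM in Gpx4-deficient libraries, without overlap (log2 fold change -2.07, SE 1.57, adjusted p = 0.544). Cdc45 was at 28.3, 27.9 and 38.01 CPM against 0.108, 10.6 and 23.6 CPM, also without overlap (-1.46, SE 1.00, adjusted p = 0.487). Both groups of Mcm10 overlapped, at 14.4, 13.2 and 8.25 CPM against 7.65, 12.6 and 0.113 CPM. Cdt1 was the least ordered, at 71.7, 67.6 and 36.5 CPM against 62.6, 9.38 and 85.3 CPM, so that 1 Gpx4-deficient library was the lowest of the 12 and another the highest. In all, 5 of the 10 genes had every Gpx4-deficient library below every wild-type library, against 11.9% of all tested genes, and none had the reverse, against 8.29%. In addition 9 of 10 log2 fold changes were negative, with a median of -0.76 against 0 over all tested genes. Mcm4 was the 10th.

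The remaining comparisons set stimulated against unstimulated cells of 1 genotype. They share libraries with the comparisons above and are given side by side, not as independent evidence. In wild-type cells Mcm2, Mcm5 and Mcm7 fell, 3 of 10, where 11.5% of all tested genes passed, 5.41% as lower and 6.12% as higher. In Gpx4-deficient cells Mcm2, Mcm3 and Mcm7 fell, also 3 of 10, where 15.3% of all tested genes passed, 7.83% as lower and 7.45% as higher. None of the 10 rose in either genotype. Of the 10 genes, 9 had negative log2 fold changes in each genotype, with medians of -0.72 and -0.95 against -0.03 and -0.02 over all tested genes, and Cdt1 was the exception in both.

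Mcm7 showed the largest change of a ring gene in wild-type cells. Its mean fell from 301.2 ± 17.0 to 121.0 ± 8.10 CPM (SD, n = 3), with -1.32 on the log2 scale (SE 0.24, adjusted p = 0.00305), and the call held without any 1 library. In Gpx4-deficient cells it fell from 166.9 ± 14.9 to 91.6 ± 34.2 CPM (-0.87, SE 0.24, adjusted p = 0.0282). That call was lost without unstimulated Gpx4-deficient replicate 2 (adjusted p = 0.0901) or 3 (adjusted p = 0.0728), and in a fit of those 6 libraries alone (adjusted p = 0.146).

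Mcm2 fell in both genotypes. In wild-type cells its mean went from 264.2 ± 45.9 to 148.9 ± 23.8 CPM (log2 change -0.83, SE 0.19, adjusted p = 0.0130), a call that was lost without unstimulated wild-type replicate 1, its highest library (adjusted p = 0.0694), or stimulated wild-type replicate 3, the lowest of its group (adjusted p = 0.0645). In Gpx4-deficient cells it went from 187.8 ± 38.2 to 89.1 ± 4.54 CPM (-1.08, SE 0.19, adjusted p = 0.00240), which held without any 1 library. The 3 stimulated Gpx4-deficient values of Mcm2 were unusually close, with a coefficient of variation of 5.10% against a median of 30.6% for the 2198 genes of like level in that group.

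Mcm3 and Mcm5 passed in 1 genotype each. Mcm3 fell in Gpx4-deficient cells from 163.1 ± 11.7 to 69.0 ± 22.7 CPM (log2 change -1.24, SE 0.20, adjusted p = 0.00130), a call that held without any 1 library. In wild-type cells it went from 279.4 ± 18.2 to 203.5 ± 20.1 CPM (-0.46, SE 0.20, adjusted p = 0.184), without overlap, and passed there without stimulated Gpx4-deficient replicate 1 (adjusted p = 0.0236). Mcm5 fell in wild-type cells from 299.6 ± 23.2 to 168.1 ± 22.5 CPM (-0.83, SE 0.24, adjusted p = 0.0437), a call close to the threshold that was lost without any 1 of the 6 wild-type libraries (adjusted p from 0.0675 to 0.136). In Gpx4-deficient cells it went from 155.1 ± 28.1 to 98.1 ± 33.3 CPM (-0.66, SE 0.24, adjusted p = 0.0862), again without overlap, and passed without stimulated Gpx4-deficient replicate 1 (adjusted p = 0.0429).

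Mcm4 and Mcm6 passed in neither genotype. In wild-type cells their log2 fold changes were -0.61 (SE 0.24, adjusted p = 0.149) and -0.54 (SE 0.18, adjusted p = 0.0867), and neither gene overlapped. In Gpx4-deficient cells they were -0.30 (SE 0.24) and -0.16 (SE 0.18), with overlap in both. Without stimulated Gpx4-deficient replicate 1, its highest library after stimulation, Mcm4 passed in wild-type (-0.61, adjusted p = 0.00623) and Gpx4-deficient cells (-0.70, adjusted p = 0.00577). A fit of the 6 wild-type libraries alone called 8 of the 10 genes, all but Cdc45 and Cdt1, where it called 26.3% of all genes tested in that fit and 13.1% as lower. The loaders and activators did not pass in either genotype. Cdc6 was lower in all stimulated wild-type libraries than in all unstimulated ones (-0.98, SE 1.52), as was Mcm10 (-1.23, SE 1.11). Cdt1 had log2 fold changes of 0.35 (SE 0.62) and 0.59 (SE 0.62) in the 2 genotypes, and the latter turned to -0.22 without stimulated Gpx4-deficient replicate 3 and unstimulated Gpx4-deficient replicate 1. Groups that did not overlap and were lower after stimulation numbered 8 of 10 in wild-type cells, against 22.1% of all tested genes, and 4 of 10 in Gpx4-deficient cells, against 16.9%. None of the 10 was higher without overlap, against 19.8% and 12.9% of all tested genes.

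The interaction tests whether the stimulation response differed between the genotypes. None of the 10 genes passed in edgeR, DESeq2 or limma-voom, and 0.202% of all tested genes passed in edgeR (0.175% as lower and 0.027% as higher). DESeq2 called 2.56% of all tested genes there. Limma-voom called 0 of them, so its result is not particular to the 10. At an unadjusted p under 0.05 stood 1 of the 10 genes and 1298 of all tested genes. That gene was Mcm3, whose log2 fold change after stimulation was lower by 0.78 in Gpx4-deficient cells (interaction -0.78, SE 0.28, adjusted p = 0.445 by edgeR). Without stimulated Gpx4-deficient replicate 1 it passed, at -1.06 (adjusted p = 0.0220). The responses of the other 5 ring genes had interaction terms between -0.25 (SE 0.26) for Mcm2 and 0.45 (SE 0.33) for Mcm7, none of which passed.

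**Figure D3:**
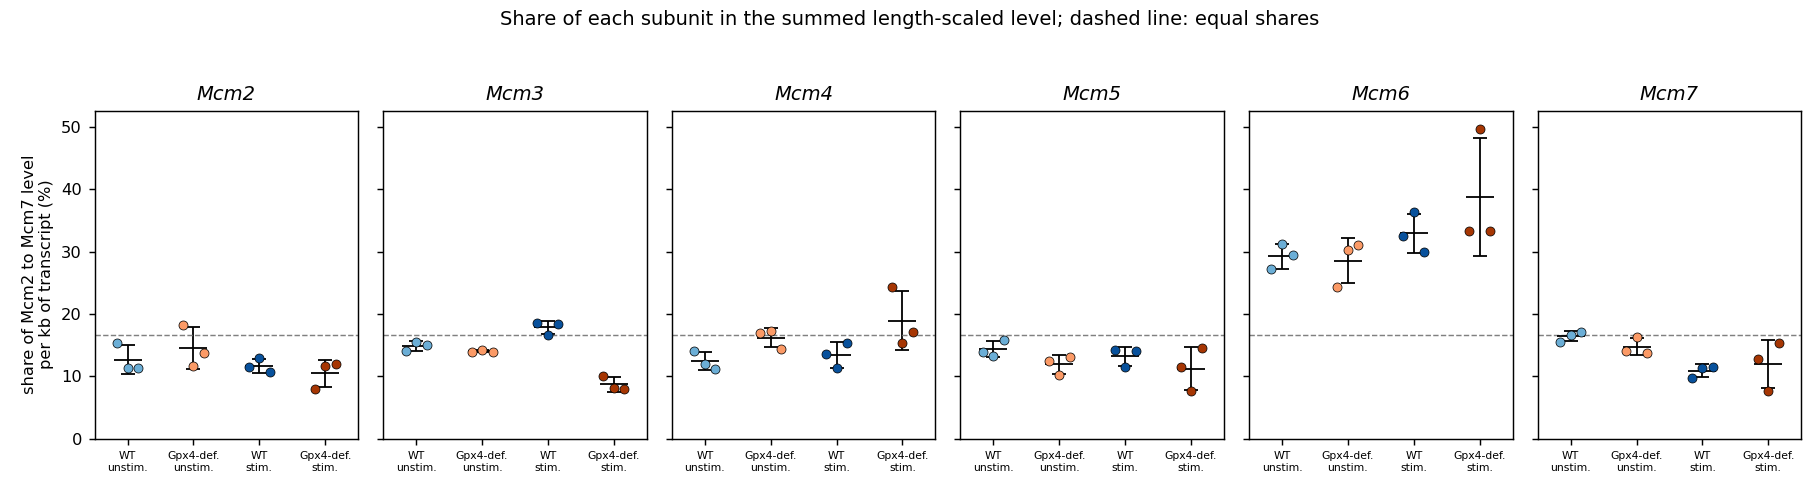
Share of each of Mcm2 to Mcm7 in their summed level per kb of principal transcript (%), by library (points), with group mean and SD; the dashed line is an equal share of 6 subunits. Mcm3 is at 7.91% to 10.1% in stimulated Gpx4-deficient libraries and at least 13.9% in all others, while Mcm6 is above the line in all 12.

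The ring holds 1 copy of each subunit, so the 6 transcripts were also compared with each other, after division by the length of the principal GENCODE transcript (2.91 kb for Mcm6 to 3.589 kb for Mcm4). The share of Mcm3 in the summed level per kb was 14.04%, 15.6% and 15.1% in unstimulated wild-type libraries, 13.9%, 14.2% and 13.9% in unstimulated Gpx4-deficient ones, and 18.5%, 16.6% and 18.4% in stimulated wild-type ones. In stimulated Gpx4-deficient libraries it was 10.1%, 8.04% and 7.91%, below the 9 others. These shares are a description and were not tested. Mcm6 had the highest level per kb in all 12 libraries, with mean shares of 29.2%, 28.6%, 32.9% and 38.8% in unstimulated wild-type, unstimulated Gpx4-deficient, stimulated wild-type and stimulated Gpx4-deficient cells. With the union of all exons as the length, Mcm6 was highest in 10 of 12. The share of Mcm7 was between 15.5% and 17.2% in unstimulated wild-type and between 9.73% and 11.6% in stimulated wild-type libraries. The highest of the 6 levels was 1.95 to 2.76 times the lowest in unstimulated wild-type libraries and 4.16 to 6.49 times the lowest in stimulated Gpx4-deficient ones. The order below Mcm6 changed from library to library.

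**Figure D4:**
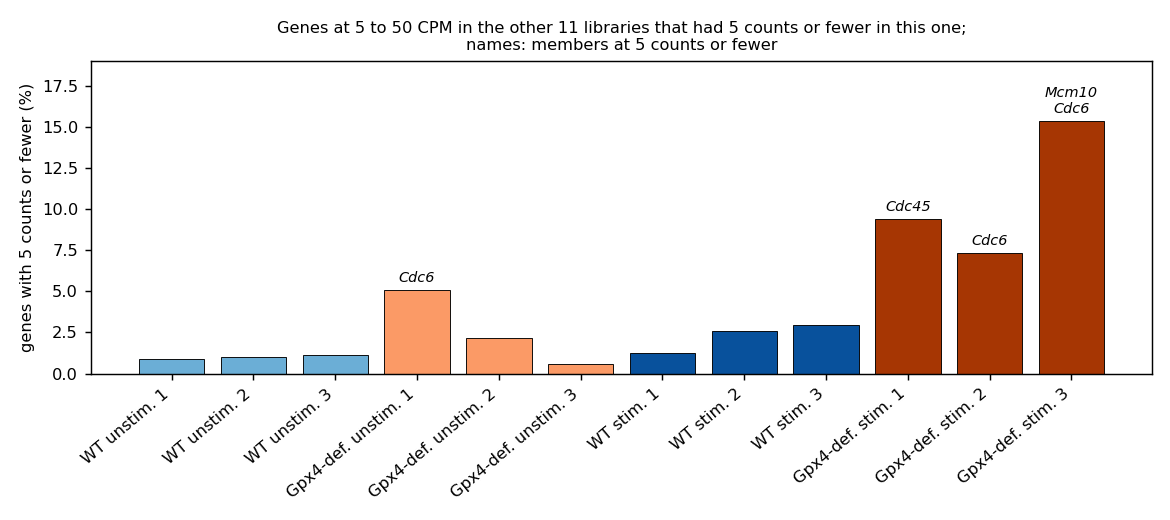
Bars give, for each library, the share (%) of the genes with a mean of 5 to 50 CPM in the other 11 libraries that had 5 counts or fewer in that library; names above bars are the genes of the 10 found at 5 counts or fewer. The 3 stimulated Gpx4-deficient libraries stand at 7.31% to 15.3% and every named gene lies in a Gpx4-deficient library.

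The lowest values of Cdc6, Cdc45 and Mcm10 were near-complete losses of counts in some Gpx4-deficient libraries. Other low values were not such losses. In unstimulated Gpx4-deficient replicates 2 and 3 Cdc6 was at 12.5 and 16.4 CPM, where the lowest unstimulated wild-type library had 26.9 CPM. Mcm10 held 60 counts (2.11 CPM) in unstimulated Gpx4-deficient replicate 1. Cdc6 had 3 counts in unstimulated Gpx4-deficient replicate 1, 5 in stimulated Gpx4-deficient replicate 2 and 3 in stimulated Gpx4-deficient replicate 3, where its mean over the other 11 libraries was 18.7 CPM. Cdc45 had 3 counts in stimulated Gpx4-deficient replicate 1, against a mean of 30.8 CPM in the other 11. Mcm10 had 3 counts in stimulated Gpx4-deficient replicate 3, against 16.5 CPM. No gene of the 10 was this low in a wild-type library. Such losses were also more frequent among all genes of that level in those libraries. Of the genes at 5 to 50 CPM in the other 11 libraries, 5.09% had 5 counts or fewer in unstimulated Gpx4-deficient replicate 1, and 9.39%, 7.31% and 15.3% in stimulated Gpx4-deficient replicates 1, 2 and 3. The wild-type libraries ranged from 0.872% to 2.92%. Without stimulated Gpx4-deficient replicate 1, the library that kept Cdc6, Cdc6 passed in the stimulated genotype comparison (log2 fold change -6.99, adjusted p = 0.0395). In the same fit it passed in the stimulation of Gpx4-deficient cells (-6.08, adjusted p = 0.0240), and those fitted folds rest on counts of 5 and 3.

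**Figure D5:**
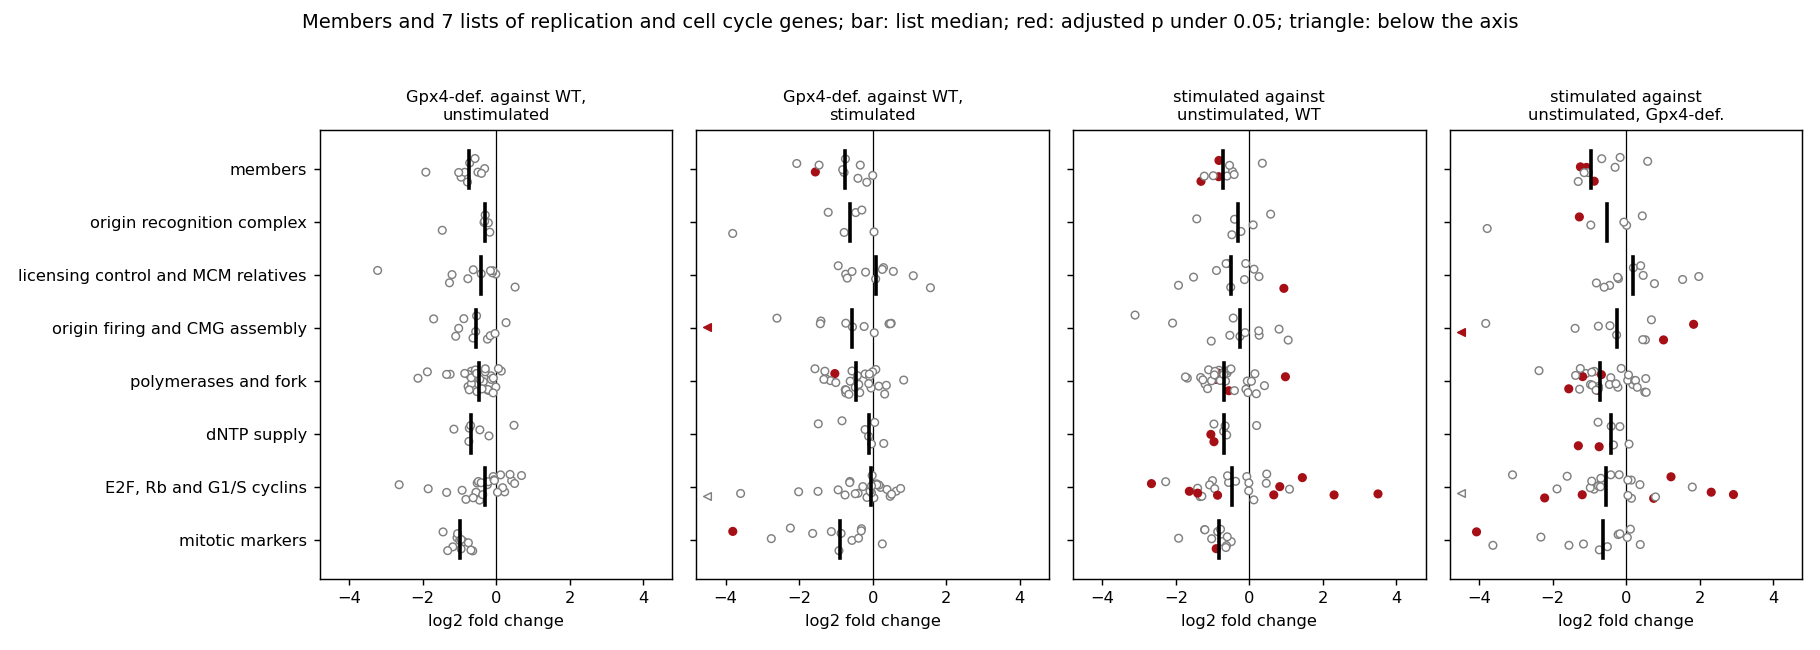
Log2 fold change (edgeR) of each tested gene of the 10 (members) and of 7 lists of replication and cell cycle genes in 4 comparisons; thick bars are medians, red points have an adjusted p under 0.05 and triangles lie below the axis. Most medians are left of 0, and red points are on both sides of 0 only in the stimulation panels.

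The partners of these 10 genes were taken from 7 lists with 105 genes, of which 103 were tested. Between unstimulated genotypes none of the 103 passed in edgeR or limma-voom, and 4 passed in DESeq2 (Top2a, Pcna, Ccna2 and Plk1). Of all tested genes these 3 tools called 0.0674%, 0.121% and 1.23%. An unadjusted p under 0.05 was found for 18 of the 103, and a negative log2 fold change for 90 (median -0.51). Lower without overlap were 41 of the 103 and higher 2, against 9.89% and 8.42% of all tested genes. All 12 mitotic markers were negative (median -0.97, 10 lower without overlap), and the 7 genes of nucleotide supply had a median of -0.69 (5 lower without overlap). The 10 genes had a median of -0.75 (7 lower without overlap). Medians of the remaining lists ran from -0.55 to -0.30. Pcna, the sliding clamp of the polymerases, had means of 182.6 ± 13.2 and 114.7 ± 12.6 CPM (log2 fold change -0.67, SE 0.15, adjusted p = 0.262). Between stimulated genotypes 3 fell and none rose (median -0.38, 74 negative), a share of 2.91% that is near the 2.27% of all tested genes. They were Gins1, a GINS subunit that joins the ring together with Cdc45, Fen1, the flap nuclease of Okazaki fragments, and Kif11, a mitotic kinesin.

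Gins1 was not detected in stimulated Gpx4-deficient cells. It had 0 counts in all 3 of those libraries and 72 in the 3 stimulated wild-type ones, at least 27.7-fold lower on a floor of 3 counts over the group (adjusted p = 0.0351). Fen1 was at 118.8 ± 5.14 CPM in stimulated wild-type and at 58.2 ± 17.9 CPM in Gpx4-deficient cells (adjusted p = 0.0433), and Kif11 at 45.7 ± 6.27 and 3.28 ± 4.21 CPM (adjusted p = 0.0311). None of these 3 calls held throughout when 1 library was left out. Kif11 was lost without any 1 of the 6 wild-type libraries (adjusted p up to 0.0885), Fen1 without any 1 library but stimulated Gpx4-deficient replicate 2 (up to 0.16), and Gins1 without any 1 of the 6 wild-type libraries, unstimulated Gpx4-deficient replicate 2 or 3, or stimulated Gpx4-deficient replicate 3 (up to 0.0895).

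After stimulation genes of these lists were called in both directions. In wild-type cells 10 of 103 fell and 7 rose (16.5% called, against 11.5% of all tested genes). The share called lower was 9.71%, against 5.41% of all. In Gpx4-deficient cells 11 fell and 6 rose (16.5%, against 15.3%), with 10.7% called lower, against 7.83%. Negative log2 fold changes numbered 79 of 103 in wild-type cells (median -0.62) and 66 in Gpx4-deficient ones (median -0.42). Lower without overlap were 51 and 22 of the 103, against 22.1% and 16.9% of all tested genes. Higher without overlap were 13 and 8, against 19.8% and 12.9%. Myc, a transcription factor that drives entry into the cycle, rose from 252.1 ± 11.0 to 1246 ± 88.9 CPM in wild-type and from 244.7 ± 28.3 to 1220 ± 118 CPM in Gpx4-deficient cells (log2 fold changes 2.31 and 2.32). Cdkn1a, which encodes the cyclin kinase inhibitor p21, rose from 8.54 ± 1.56 to 96.7 ± 7.19 CPM and from 12.1 ± 4.29 to 92.1 ± 8.85 CPM. Cdk6 rose and E2f2 and Ccnd3 fell in both genotypes. These 5 genes held in both genotypes without any 1 library, as did Ccnd2 and Ddb1, a subunit of the ligase that degrades Cdt1, which rose in wild-type cells.

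The genes closest in function to the 10 passed the test in few cases. Of the 6 origin recognition genes, Orc3 fell in stimulated Gpx4-deficient cells (81.8 ± 31.2 to 33.9 ± 9.98 CPM, adjusted p = 0.0133) and no other passed in any comparison. Of the 11 tested licensing controls and ring relatives, Ddb1 alone passed, and of the 11 genes of helicase assembly and firing Gins1 fell while Mtbp and Donson rose in stimulated Gpx4-deficient cells. Of 30 polymerase and fork genes, Pold1, Pcna and Rfc2 fell and Pole3 rose in wild-type cells, and Pold1, Rfc2, Fen1 and Lig1 fell in Gpx4-deficient ones. Of 7 genes of nucleotide supply, Rrm2 and Tyms fell in wild-type cells, and Tyms and Tk1 in Gpx4-deficient ones. Of 26 E2F and G1/S genes, E2f4 also rose and Ccna2 and Cdkn1b fell in wild-type cells, and Tfdp1 rose in Gpx4-deficient ones. Of 12 mitotic markers, Plk1 fell in wild-type and Kif11 in Gpx4-deficient cells.

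Many of these calls lay near the threshold. In wild-type cells 10 of the 17 (Pold1, Pcna, Rfc2, Pole3, Rrm2, Tyms, E2f4, Ccna2, Cdkn1b and Plk1) were lost without unstimulated replicate 1 and likewise without stimulated replicate 3, and each of them also without at least 1 other library (adjusted p from 0.0514 to 0.182). In Gpx4-deficient cells 8 of the 17 were lost. Orc3, Lig1, Fen1, Rfc2, Tyms and Mtbp were lost without unstimulated replicate 1, and Donson and Tk1 without unstimulated replicate 2 (adjusted p from 0.0544 to 0.190 over these 8 and any other library that ended their calls). Pold1, Tfdp1, Gins1 and Kif11 held there without any 1 library. In the interaction none of the 103 passed in edgeR or limma-voom, 1 passed in DESeq2, and 7 had an unadjusted p under 0.05. Of all tested genes edgeR called 0.202% there, limma-voom 0 and DESeq2 2.56%.

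Across the 12 libraries the 15 pairs among the ring genes had Pearson r of 0.50 to 0.92 (median 0.75) on log2 CPM, and the other 30 pairs of the 10 had r of -0.13 to 0.83 (median 0.43). These values describe libraries of 4 groups and carry no test, since the libraries share group differences and the scaling. Among 8501 genes ranked above a floor of 3 in mean log2 CPM, those most like the mean scaled level of the 10 were Gapdh (r = 0.967), Actr3, Dut (r = 0.949), H2-D1, Ppil1, Etfb, Glipr2 and Rnf114 (r = 0.939). The most opposite were Cnot4 (r = -0.967), Prrc2a (r = -0.967), Son (r = -0.956) and Mllt6 (r = -0.953). Dut, the dUTPase that keeps uracil out of DNA, was at 73.6 ± 1.68, 45.6 ± 6.79, 48.0 ± 0.672 and 26.9 ± 7.12 CPM in unstimulated wild-type, unstimulated Gpx4-deficient, stimulated wild-type and stimulated Gpx4-deficient cells, the same order of groups as the summed ring genes apart from the 2 middle ones.

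By the GENCODE annotation of GRCm38 the genes lie on 7 chromosomes. Mcm3 is at chromosome 1 from 20802968 to 20820312 (minus strand) with 17 exons in its principal transcript, Mcm2 at chromosome 6 from 88883474 to 88898780 (minus), Mcm5 at chromosome 8 from 75109569 to 75128439 (plus), and Mcm7 at chromosome 5 from 138164583 to 138172422 (minus). Mcm7 overlaps Cops6 and Ap4m1 on the opposite strand, and Cdc45 overlaps Ufd1, also on the opposite strand. On the same strand, Mcm7 overlaps the microRNA genes Mir25, Mir93 and Mir106b, and Cdt1 overlaps Gm20388, annotated as protein-coding. The library kit keeps the strand, but whether the counting used it is not given in the sources used here. If it did not, reads of the opposite-strand overlaps cannot be told apart. Strand does not separate reads of the same-strand overlaps in either case. Cops6 was at 166.9 ± 5.48, 127.0 ± 20.2, 182.7 ± 10.9 and 124.9 ± 37.3 CPM in unstimulated wild-type, unstimulated Gpx4-deficient, stimulated wild-type and stimulated Gpx4-deficient cells, and Cops6, Ap4m1 and Ufd1 passed in no comparison. The start of Mcm4 lies 466 bases from that of Prkdc, a DNA repair kinase on the opposite strand. Prkdc fell on stimulation of Gpx4-deficient cells, from 112.2 ± 23.1 to 12.2 ± 15.6 CPM (log2 -3.20, adjusted p = 0.0436), a call lost without any 1 library but stimulated Gpx4-deficient replicate 1 or 3 (adjusted p up to 0.113). Mcm4 had -0.30 there (SE 0.24, adjusted p = 0.463).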

How the data were processed

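The authors deposited RSEM expected counts per gene. Of the values per library, 14.8% to 18.1% were fractional. Reads were placed on GRCm38, per the submitters' processing notes. For the aligner, versions and strand setting the labels give nothing. All 12 columns were matched to samples by title. Counts were rounded and compared with edgeR 4.0.16 in R 4.3.3 (robust quasi-likelihood F test, TMM scaling, filterByExpr), in 1 model over the 4 groups (8 residual degrees of freedom). The fit was also run on simulated counts in which each gene had the same dispersion in all groups. Such data do not cover the wider spread of the stimulated Gpx4-deficient libraries (common dispersion 1.43). P-values were adjusted by Benjamini-Hochberg over the 14827 tested genes, and a gene was called at an adjusted p under 0.05 with no minimum fold. The SE comes from the F statistic. Levels are CPM on TMM-scaled library sizes, as mean ± SD over 3 libraries. The interaction is the response of Gpx4-deficient minus that of wild-type cells. DESeq2 1.42.0 and limma 3.58.1 were alternatives, with other scalings, filters, replicate blocks and libraries left out. Floors and intervals cover counting error only. Text names the 10 genes, Gpx4, Foxp3, called list genes (otherwise up to 4 per list by p, not all described) and the 8 most and 4 least like genes. Mcm2 is named for its low variation, and Prkdc and Cops6 as neighbours, after their values were seen. The 10 genes and the lists were chosen with earlier results of these data known. Of the lists, 1 gene is not reported here. Libraries were not paired by replicate number in the main model.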

Additional observations from a re-analysis of the deposited data

How the results depend on the processing

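The precision is limited by 3 libraries a group and by the wide spread among stimulated Gpx4-deficient libraries. Of the counts of called genes among the 10, 102 alternatives stayed within 1.5 times and 10 moved. Between stimulated genotypes the count was 1, with DESeq2 3, and with only the groups compared 0. It was 1 to 2 with 1 library left out, the 2 without stimulated Gpx4-deficient replicate 1. Of all genes tested, the main fit called 2.27% there, DESeq2 10.5% and the groups alone 0.176%. The fit without that replicate called 4.13%. Between unstimulated genotypes the count was 0 (0.0674% of all genes tested were called), and 4 with DESeq2 (1.23%). For stimulation of wild-type cells the count was 3, and with only the groups compared 8. With 1 library left out it was 1 to 5 (1 without unstimulated wild-type replicate 1 or stimulated wild-type replicate 3, 5 without stimulated Gpx4-deficient replicate 1). The main fit called 11.5% of all genes tested there, and the groups alone 26.3%. Without those 2 wild-type libraries in turn the shares were 7.34% and 7.46%, and without that Gpx4-deficient one 12.3%. For stimulation of Gpx4-deficient cells the count was 3, and 2 to 6 with 1 library left out (6 without stimulated Gpx4-deficient replicate 1). Of all genes tested, 15.3% were called there in the main fit and 14.8% without that replicate. For the interaction the count was 0, and 0 to 1 with 1 library left out (Mcm3, without stimulated Gpx4-deficient replicate 1). The share of all genes tested was 0.202% in the main fit and 0.823% without that replicate. The cause was not tested.

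Of single fold changes, 1057 kept direction and side of the threshold, 25 passed and 15 failed it under an alternative, and 23 changed sign, none of them called. In the interaction those were Cdt1 with limma-voom (-0.19) and without stimulated Gpx4-deficient replicate 3 and unstimulated Gpx4-deficient replicate 1 together (-0.59, chosen after seeing the data), and Mcm10 with limma-voom (-0.60). In the same 2-library exclusion Cdt1 had -0.22 for stimulation of Gpx4-deficient cells. Mcm4 between stimulated genotypes had -0.00379 with upper quartile scaling, -0.00198 with total count scaling, -0.089 with limma-voom and -0.049 with a replicate block. With 1 library left out, values that crossed 0 ran from -5.10 to 0.48 (Cdc6 interaction), -0.31 to 0.74 (Cdt1 interaction), -0.70 to 0.37 (Cdt1 between stimulated genotypes), -0.57 to 0.77 (Mcm10 interaction), -0.37 to 0.24 (Mcm4 between stimulated genotypes) and -0.091 to 0.52 (Mcm4 interaction).

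Same-numbered libraries of different groups had deviations with r of -0.05 to 0.07, and within a genotype r was between -0.004 and 0.06. Differently numbered ones ran from -0.08 to 0.08. Deviations from means of 3 libraries cannot decide whether equal numbers mark the same animal, and the main fit is not paired. With a replicate block over all groups the counts were 1 and 0 between stimulated and unstimulated genotypes (1.15% and 0.0202% of all tested genes). They were 3 and 3 for stimulation of wild-type and Gpx4-deficient cells (10% and 12.8%), and 0 for the interaction (0.0337%). In Gpx4-deficient cells Mcm5 (adjusted p = 0.0477) stood in place of Mcm7 (adjusted p = 0.0506). Over all genes tested, 337 were called between stimulated genotypes, against 1564 with DESeq2, 434 with limma-voom (283 lower, where edgeR had 185 of 337) and 22 with only the groups compared. Between unstimulated genotypes 10 were called, against 183 with DESeq2 and 18 with limma-voom. For the interaction 30 were called, against 380 with DESeq2 and 0 with limma-voom. For stimulation 1709 were called in wild-type cells, against 2639 with DESeq2 and 3499 with only the groups compared, and 2266 in Gpx4-deficient cells, against 3609 and 1022. Limma-voom moved the median log2 fold change of all genes to -0.21 between stimulated genotypes. Among list genes, 35 of the alternative counts moved.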
